A study of Mus musculus with 6 samples.

Results

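The TNF superfamily was followed here across 6 arrays of liver cells. Its genes were taken as every gene whose symbol in the array annotation starts with Tnfrsf (receptors) or Tnfsf (ligands), together with Tnf, Lta, Ltb, Ltbr, Fas, Fasl, Cd40, Cd40lg, Cd27, Cd70 and Eda2r, whether or not a signal was detected. This gave 42 of the 19057 genes with a probe of their own, 25 receptors and 17 ligands, read by 79 probes. RNA was measured on Illumina mouse bead arrays, with 1 array per condition and therefore no replicate. The hepatocytes came from a wild type mouse (WT hepatocytes) and from a DDB1F/F;Alb-Cre+/+ mouse (mutant hepatocytes). The other arrays held EpCAM+ cells sorted from the non-parenchymal fraction of DDB1F/F;Alb-Cre+/+ liver at 4 weeks, DDB1F/F;Alb-Cre+/- liver at 6 weeks, DDB1F/F;MX1-Cre+/- liver and liver of a wild type mouse on a diet with 3,5-diethoxycarbonyl-1,4-dihydrocollidine (DDC), a chemical that injures bile ducts. DDB1 is an adaptor of the Cul4 ubiquitin ligases. Alb-Cre deletes the floxed gene in hepatocytes, whereas Mx1-Cre is switched on by injected poly(I:C), an interferon inducer, and acts in other cells of the liver and blood as well. All animals were of a mixed C57BL/6 and 129 strain, and no age is labelled for the other arrays, so that age and model cannot be told apart. The labels give the tissue as mammary, while the isolation protocol is one for liver, and Cyp2e1 and Apoa1, genes of hepatocytes, read 55925 and 57308 in WT hepatocytes.

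Ligands of this family are mostly trimers on the surface of immune cells, and they cluster their receptors on the target cell. Receptors with a death domain, such as Fas and Tnfrsf1a, can start apoptosis through Fadd and Casp8. The others recruit TRAF adaptors and switch on NF-kB through its classical arm, in which Nfkbia is degraded, or through its alternative arm, in which Map3k14 (NIK) leads to processing of Nfkb2, the partner of Relb. In liver, Tnf is made largely by macrophages, lymphotoxin and Tnf have been tied to growth of oval cells (progenitor-like duct cells), and Tnfrsf12a (Fn14) is the receptor of Tnfsf12 (TWEAK), a factor that drives oval cells to divide.

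Signals are the authors' quantile-normalized intensities, in arbitrary units that are comparable between arrays for 1 probe but not between probes. A signal was taken as above background where its detection p-value was under 0.05. The standard error over the beads of an array ran from 3.99% to 8.79% of the signal for the 28 genes of the family above background on at least 1 array, and the intervals given are 95% intervals from this bead error alone. They cover the measurement of a single RNA sample and not the spread between animals. A fold against a signal that was not above background is a lower bound, taken relative to the dimmest signal that still passed on the array concerned. This limit was 159 for WT hepatocytes and between 110 and 119 for the others, so a gene had to be brighter to be seen in WT hepatocytes.

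Ddb1 itself read 499 in WT hepatocytes and 169 in mutant hepatocytes, and 205 to 317 in the EpCAM+ arrays. Whether its probe lies in the deleted part is not known here. Epcam, the antigen of the sort, was dim. It read 126 in Alb-Cre+/+, 162 in Mx1-Cre and 177 in DDC EpCAM+ cells and was not above background in the Alb-Cre+/- EpCAM+ array (112) or in WT (92.4) and mutant (100.1) hepatocytes, so that 1 array labelled EpCAM+ showed no Epcam signal. Of the markers of cholangiocytes and oval cells that could be tested, 10 of 10 were higher in EpCAM+ cells than in hepatocytes by limma, next to 11.9% of all genes, and 12 of 13 hepatocyte markers were lower, next to 10.6%. Without the WT hepatocyte array these counts were 1 of 11 and 7 of 13 (2.44% of all genes higher and 8.17% lower). Without any other single array they were at least 7 of 11 and 10 of 13, the 7 being reached without the Alb-Cre+/- EpCAM+ array. Only genes above background on every array of 1 side entered the fit. Of the 12 duct markers on the array 1 was above background in WT hepatocytes, so most entered only through the EpCAM+ arrays. Of the 15 hepatocyte markers 8 were above background in DDC cells, so some entered only through the hepatocyte arrays. The filter thus favoured both directions, and the marker counts are descriptions only. Other cells were also represented. The sort used antibodies to EpCAM and F4/80, and the Alb-Cre+/+ cells are described as EpCAM+ F4/80-, a gate that leaves out F4/80+ macrophages, while the labels of the arrays name only EpCAM. The summed signal of 8 pan-leukocyte markers was 2132 in WT hepatocytes, 9900 in mutant hepatocytes, and in EpCAM+ cells 30494 (Alb-Cre+/+), 17823 (Alb-Cre+/-), 6642 (Mx1-Cre) and 6997 (DDC), with Ptprc, which defines leukocytes, not above background on any array. The 12 macrophage markers summed to 3233 in WT hepatocytes, 12305 in mutant hepatocytes and 4913 to 17380 in the EpCAM+ arrays, and the 14 endothelial markers to 4581 and 18494 in the hepatocyte arrays, 26847, 35378 and 18309 in the mutant EpCAM+ arrays in the same order and 3380 after DDC. More cells of a type and more RNA per cell cannot be told apart in such bulk samples.

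**Figure D1:**
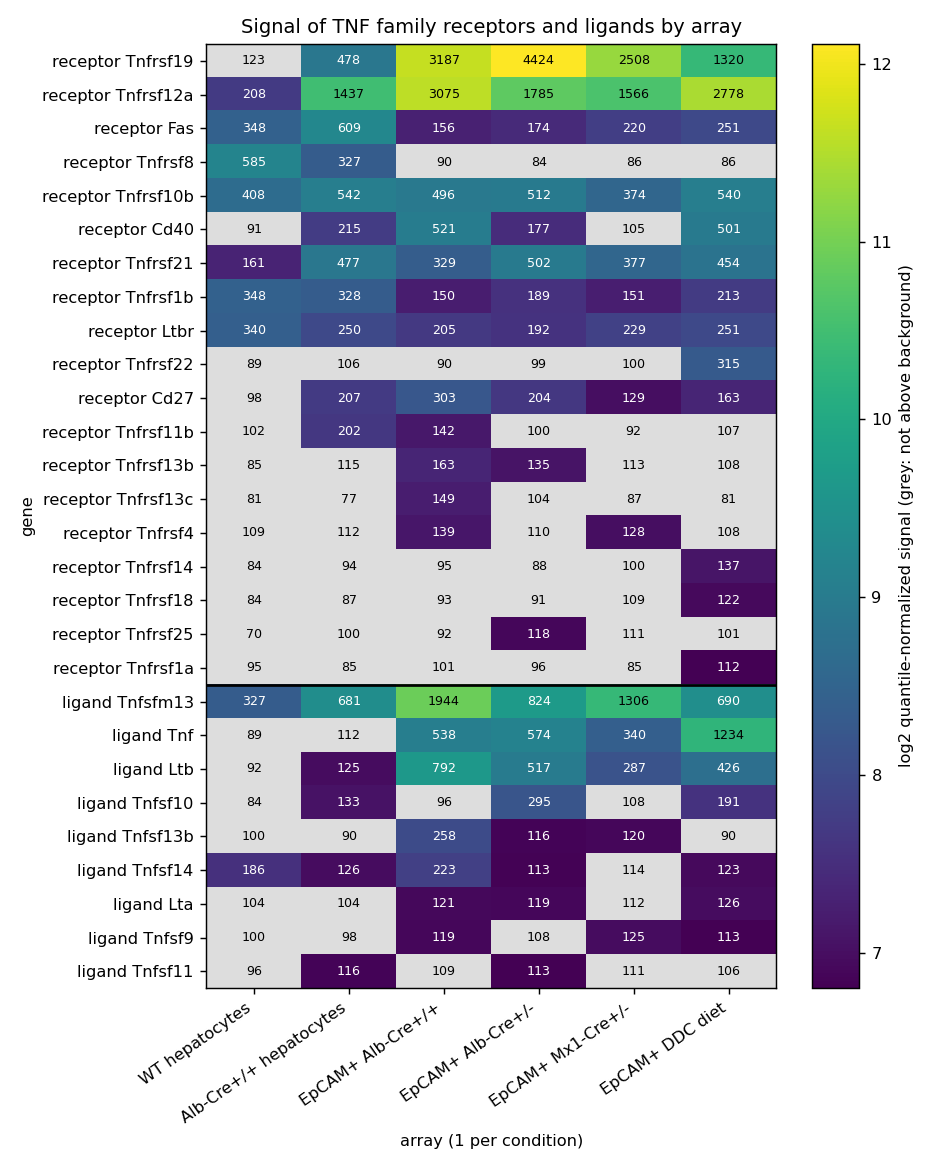
Quantile-normalized signal of the 28 family genes above background on at least 1 array, with receptors above and ligands below the black line and 1 column for each array. Numbers are signals, colour is the log2 signal, and grey cells are not above background; Tnfrsf8 is coloured only on the hepatocyte arrays (585 and 327), and Tnfrsf22 only after DDC (315).

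Of the 42 genes, 7 were above background on all 6 arrays, namely the receptors Fas, Ltbr, Tnfrsf10b, Tnfrsf12a, Tnfrsf1b and Tnfrsf21 and the ligand transcript Tnfsfm13. Another 21 were above background on 1 to 5 arrays and 14 on none. WT hepatocytes had 7 receptors and 2 ligands above background and mutant hepatocytes 11 and 5. The EpCAM+ arrays had 9 to 13 receptors and 5 to 8 ligands. The 14 genes that no probe detected read between 70.8 and 113.8 and included both ligands of immune cells (Cd40lg, Cd70, Fasl, Tnfsf4, Tnfsf8, Tnfsf15, Tnfsf18) and receptors (Eda2r, Tnfrsf11a, Tnfrsf17, Tnfrsf9, Tnfrsf23, Tnfrsf26). The last of them was Tnfsf12, the TWEAK ligand itself.

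Tnfrsf12a was above background on every array and stood lowest in WT hepatocytes. Its detection p there was 0.015, so the WT signal lies near background and would not pass at 0.01. Folds over WT hepatocytes therefore depend on how background is treated, which the bead intervals leave out. For Alb-Cre+/+ EpCAM+ cells the log2 fold was 3.89, and 4.52 with normexp background correction. Its signal was 208 in WT hepatocytes, 1437 in mutant hepatocytes, and in EpCAM+ cells 3075 (Alb-Cre+/+), 1785 (Alb-Cre+/-), 1566 (Mx1-Cre) and 2778 (DDC). Mutant hepatocytes lay 6.91-fold above WT hepatocytes (5.6 to 8.52), and the EpCAM+ arrays lay 14.8-fold (11.9 to 18.4), 8.58-fold (7.16 to 10.3), 7.53-fold (6.32 to 8.98) and 13.4-fold (11.2 to 15.9) above them in the same order. In the authors' normalization all 4 EpCAM+ arrays were thus above both hepatocyte arrays, but the Mx1-Cre array exceeded the mutant hepatocytes by little. The bead intervals of the Alb-Cre+/- and Mx1-Cre arrays over WT hepatocytes overlap that of the mutant hepatocytes. With median scaling both of these EpCAM+ arrays fell below the mutant hepatocytes. The log2 folds over WT hepatocytes were then 3.06 (Alb-Cre+/-) and 3.16 (Mx1-Cre), against 3.26 in mutant hepatocytes. Among cells of the Alb-Cre+/+ genotype, EpCAM+ cells read 2.14-fold above hepatocytes (1.7 to 2.7; log2 0.32 with median scaling, under 2-fold). The array with the largest Tnfrsf12a signal differed from the DDC array by 1.11-fold only (0.906 to 1.35), a difference whose direction reverses with median scaling (log2 0.15 against -0.41). The ligand Tnfsf12 read 75.8 to 101.9 and was not above background on any array.

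Between all 4 EpCAM+ and both hepatocyte arrays, limma gave a log2 difference of 2.02 ± 0.69 (SE) for Tnfrsf12a with an adjusted p of 0.067, which misses the threshold of 0.05. The mutant hepatocyte array decided this: without it the difference was 3.41 with an adjusted p of 0.0115, and without the WT hepatocytes it was 0.62 with an adjusted p of 0.488.

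**Figure D2:**
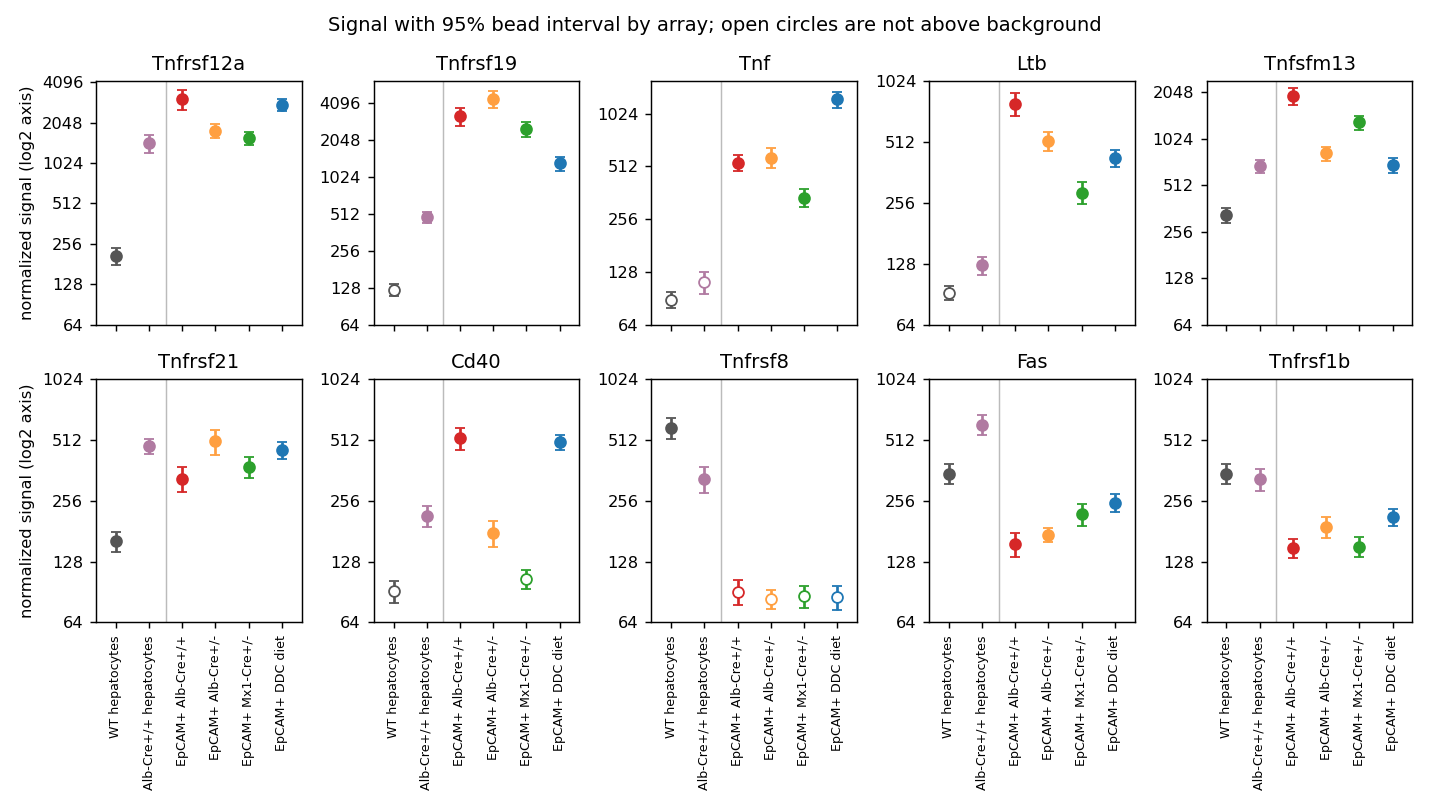
Signal of 10 family genes on each array, on a log2 axis, with hepatocyte arrays left and EpCAM+ arrays right of the grey line. Bars are 95% intervals from bead error and open circles are not above background; Tnfrsf12a rises from 208 in WT hepatocytes to 1437 in mutant hepatocytes, whereas Tnf is open on both hepatocyte arrays and Tnfrsf8 on all 4 EpCAM+ arrays.

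The limma fit put the 4 EpCAM+ arrays against the 2 hepatocyte arrays, with p-values adjusted by Benjamini-Hochberg over 8866 genes. Its spread is that between models and genotypes, and the 15 ways of splitting the arrays allow no exact p for a single gene below 0.067. Of the 42 genes 13 passed the detection filter. Tnfrsf19, Tnf and Ltb rose, and Tnfrsf8, Fas and Tnfrsf1b fell. These are 3 of 13 in each direction, where 11.9% of all genes tested were higher and 10.6% lower. At an unadjusted p under 0.05 there were 8 of 13. The share of all genes at that threshold was not computed, so this count and the unadjusted counts given further on are descriptions only. The median log2 difference was 0.30 for the 13 genes and 0.10 for all genes. Of the 6 called genes, 4 had passed the filter only through the side where they were high, Tnf, Ltb and Tnfrsf19 through the EpCAM+ arrays and Tnfrsf8 through the hepatocyte arrays. The filter thus favoured their direction, and their number is a description and not a result about the family. Of the 7 genes above background on all arrays, 2 were called, Fas and Tnfrsf1b, both lower. Without the WT hepatocyte array 0 family genes were higher by limma (3 at an unadjusted p under 0.05), with adjusted p of 0.129 for Tnfrsf19, 0.156 for Tnf and 0.159 for Ltb, and of the lower genes only Tnfrsf8 did. Without the mutant hepatocyte array Tnf (adjusted p of 0.0851) and Ltb (0.0744) did not pass.

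Tnfrsf19 (TROY) is a receptor with no settled ligand that is a target of Wnt signalling and marks stem cells of other epithelia. It read 123 in WT hepatocytes, not above background, 478 in mutant hepatocytes, and in EpCAM+ cells 3187 (Alb-Cre+/+), 4424 (Alb-Cre+/-), 2508 (Mx1-Cre) and 1320 (DDC). Every EpCAM+ array exceeded both hepatocyte arrays, and the mutant EpCAM+ arrays exceeded DDC. The log2 difference of the limma fit was 3.43 ± 0.62 (adjusted p = 0.0063). Tnfrsf19 entered the fit only through the EpCAM+ arrays, where it is high, so the filter favoured its direction and its p adds no support. Against WT hepatocytes the signal was at least 3-fold higher in mutant hepatocytes and at least 20-fold, 27.8-fold, 15.8-fold and 8.29-fold higher in the EpCAM+ arrays. A second probe for the gene was not above background on any array, so that the result rests on 1 probe. The summed endothelial signal had the same order over the EpCAM+ arrays, and in mutant hepatocytes it matched that of Mx1-Cre cells while Tnfrsf19 was 5.25-fold lower there; the part of endothelial cells was not tested.

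Tnf, the founding cytokine of the family, was not above background in hepatocytes. It read 88.6 in WT hepatocytes, 112 in mutant hepatocytes, and in EpCAM+ cells 538 (Alb-Cre+/+), 574 (Alb-Cre+/-), 340 (Mx1-Cre) and 1234 (DDC), with a log2 difference of 2.39 ± 0.50 (adjusted p = 0.0118). As Tnf entered the limma fit only through the EpCAM+ arrays, where it is high, its p adds no support. The second probe for Tnf gave the same separation, with 359, 346, 215 and 664 in the EpCAM+ arrays against 70.6 and 110 in hepatocytes, which were at background. DDC was highest at both probes. Against WT hepatocytes the bounds were at least 3.38-fold, 3.61-fold, 2.14-fold and 7.75-fold on the EpCAM+ arrays in this order. Macrophage markers did not follow this order. Of 12 on the array, those above background numbered 5 for Alb-Cre+/+ cells (summed signal 11954), 12 for Alb-Cre+/- (17380), 6 for Mx1-Cre (4913) and 6 for DDC (13964). In Alb-Cre+/- cells 9 of 12 were over 2-fold higher than in DDC cells and 0 lower, next to 5.75% and 4.61% of all genes. Cd14, chosen after its values were seen, made up most of the DDC sum, with 11499 there, 8545, 5856 and 2808 in the mutant EpCAM+ cells in the order above and 166 and 1533 in WT and mutant hepatocytes. Adgre1 (F4/80), which defines macrophages, was above background only in mutant hepatocytes (902), where Tnf was not, and in Alb-Cre+/- EpCAM+ cells (664), although the antibody to F4/80 was part of the sort.

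Ltb, the membrane anchor of the lymphotoxin heterotrimer, also separated the fractions. It read 92.1 in WT hepatocytes, not above background, 125 in mutant hepatocytes, and in EpCAM+ cells 792 (Alb-Cre+/+), 517 (Alb-Cre+/-), 287 (Mx1-Cre) and 426 (DDC). The log2 difference was 1.98 ± 0.43 (adjusted p = 0.0134). Ltb too entered the fit only through the EpCAM+ arrays, where it is high, so its p adds no support. Its partner Lta stayed near background, with 119 to 126 on 3 EpCAM+ arrays and no signal above background on the others. Ltbr, the receptor for this heterotrimer, was above background on all arrays, between 192 (Alb-Cre+/- EpCAM+ cells) and 340 (WT hepatocytes) (log2 difference -0.42 ± 0.29, adjusted p = 0.319). Alb-Cre+/+ EpCAM+ cells held both the highest Ltb and the highest summed pan-leukocyte signal. Of those markers Laptm5 read 17060 there, 12990 in the Alb-Cre+/- array, 3292 (Mx1-Cre) and 3396 (DDC) in the other EpCAM+ cells, 7009 in mutant hepatocytes and 1236 in WT hepatocytes. Among T cell markers Cd3e was above background only in Alb-Cre+/- (184) and DDC (140) EpCAM+ cells. The part of leukocyte RNA in the Tnf and Ltb signals was not tested.

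Tnf, Ltb and Lta are neighbours on chromosome 17, where Tnfrsf12a also lies. The 250 bases before the start site of Ltb, Tnf and Tnfrsf12a are shown because Tnf and Ltb were higher in EpCAM+ cells together and Tnfrsf12a is the family gene with the widest range over WT hepatocytes among those measured on every array. They are RefSeq sequences of build GRCm38.p6, from chr17:35194257-35194506 (plus strand), chr17:35202008-35202257 (minus strand) and chr17:23677450-23677699 (minus strand). Capitals mark a match to the NF-kB consensus in Ltb and to the TATA box TATAAA in Tnf.
Ltb: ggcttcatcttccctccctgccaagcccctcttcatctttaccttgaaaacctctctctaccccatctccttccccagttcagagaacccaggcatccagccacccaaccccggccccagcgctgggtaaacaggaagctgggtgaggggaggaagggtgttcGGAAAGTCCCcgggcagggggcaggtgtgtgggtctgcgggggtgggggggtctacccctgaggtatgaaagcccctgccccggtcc
Tnf: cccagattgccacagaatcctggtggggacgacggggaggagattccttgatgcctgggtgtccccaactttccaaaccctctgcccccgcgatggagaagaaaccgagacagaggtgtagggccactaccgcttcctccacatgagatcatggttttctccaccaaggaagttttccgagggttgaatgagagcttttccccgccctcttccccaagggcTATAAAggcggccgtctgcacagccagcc
Tnfrsf12a: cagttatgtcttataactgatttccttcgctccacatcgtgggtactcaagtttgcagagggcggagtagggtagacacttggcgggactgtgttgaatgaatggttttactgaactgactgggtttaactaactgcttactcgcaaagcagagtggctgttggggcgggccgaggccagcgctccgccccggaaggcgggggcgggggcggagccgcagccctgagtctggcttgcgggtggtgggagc
The NF-kB match in Ltb begins 87 bases before the start site and the TATA box of Tnf 29 bases before it. Searched on both strands, the NF-kB consensus was found in 7.25% of 32851 mouse promoter windows of the same length, TATAAA in 12.4%, the AP-1 site TGANTCA in 6.75% and the TEAD site GGAATG in 12.6%. Promoters of 32 of the 42 genes were listed, as 36 windows. Of these windows 4 held the NF-kB match, 7 the TATA box, 5 the AP-1 site and 5 the TEAD site, for each motif in as many genes. The Tnfrsf12a window held none of these letters.

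Among the receptors that were lower in EpCAM+ cells, Tnfrsf8 (CD30), a receptor best known from activated lymphocytes, was seen in hepatocytes alone. It read 585 in WT and 327 in mutant hepatocytes and 83.9 to 90.5 in EpCAM+ cells, where it was not above background on any array (log2 difference -1.93 ± 0.27, adjusted p = 0.0018). Relative to WT hepatocytes it was at least 4.92-fold to 5.31-fold lower on the 4 EpCAM+ arrays. It entered the fit only through the hepatocyte arrays, where it is high, so that its direction was fixed by the filter and its p and the calls without single arrays add no support. A second probe for the gene was not above background on any array.

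Fas, the receptor of Fasl that triggers apoptosis of hepatocytes, read 348 in WT and 609 in mutant hepatocytes, against 156 (Alb-Cre+/+), 174 (Alb-Cre+/-), 220 (Mx1-Cre) and 251 (DDC) in EpCAM+ cells (log2 difference -1.23 ± 0.36, adjusted p = 0.041). Mutant hepatocytes stood highest, 1.75-fold over WT (1.49 to 2.05), and 3.9-fold over the EpCAM+ cells of the same genotype (3.27 to 4.66). Tnfrsf1b, the receptor of Tnf that lacks a death domain, read 348 in WT and 328 in mutant hepatocytes and 150, 189, 151 and 213 in the EpCAM+ arrays in the order above (log2 difference -0.96 ± 0.27, adjusted p = 0.037). For both genes the groups did not overlap at the probe used in the authors' normalization. With median scaling Fas in DDC EpCAM+ cells lay above WT hepatocytes (log2 0.115, against -0.473), so its groups overlapped. The further probes of both genes did not show the separation. Of 3 for Fas 1 was above background, only in mutant hepatocytes (132), and of 2 for Tnfrsf1b 1, only in Alb-Cre+/+ EpCAM+ cells (122). The summed signal of 15 hepatocyte markers was 304380 and 199094 in WT and mutant hepatocytes and 20546 to 62809 in the EpCAM+ arrays; its part in the lower receptor signals was not tested. Neither call was stable, since Fas lost it without any 1 of the 6 arrays (adjusted p of 0.0556 to 0.123) and Tnfrsf1b without any but the DDC array (0.0504 to 0.12). The death domain receptor Tnfrsf1a had 3 probes, of which only 1 gave a signal above background, 112 in DDC EpCAM+ cells.

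**Figure D3:**
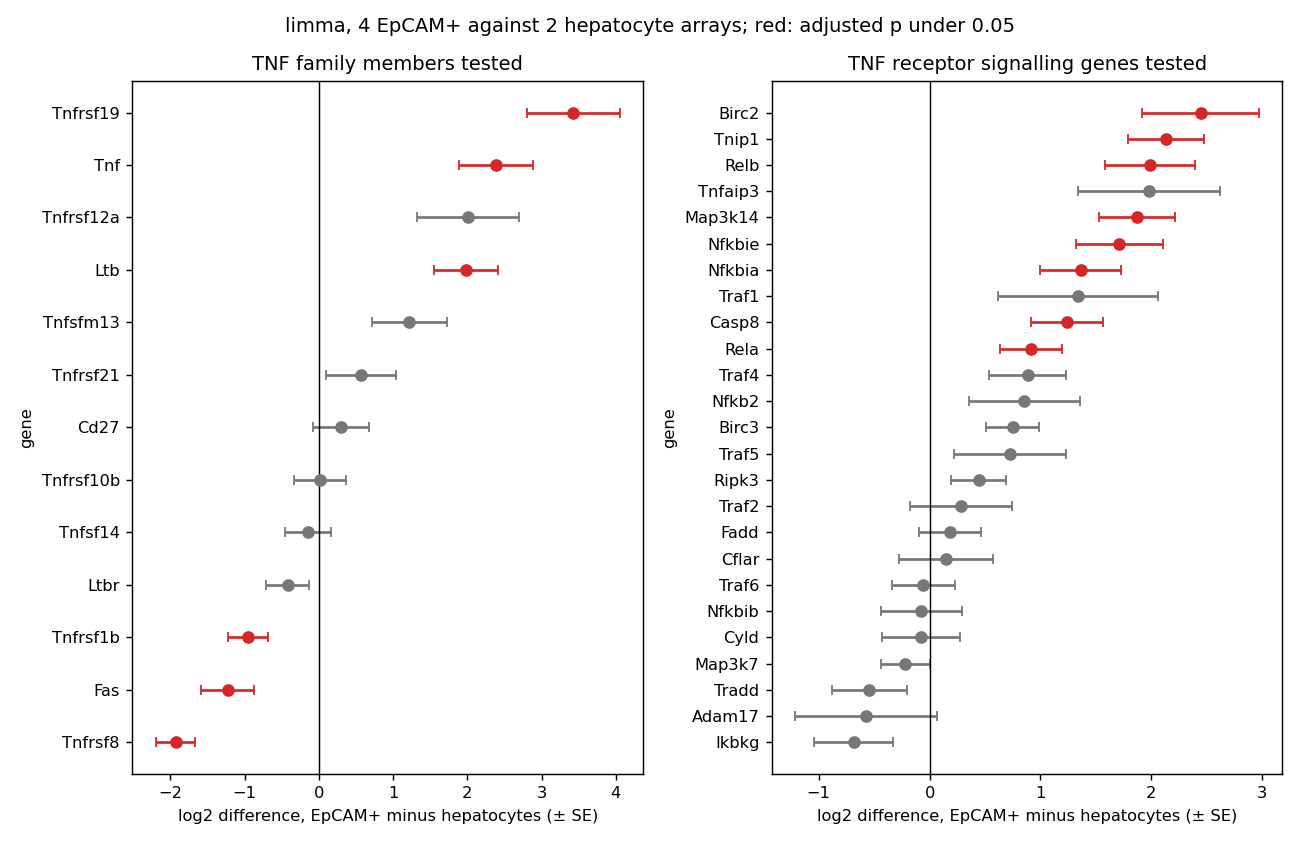
Log2 difference of the 4 EpCAM+ minus the 2 hepatocyte arrays with its SE, for the 13 family genes tested (left) and the 25 tested genes of TNF receptor signalling (right); red marks an adjusted p under 0.05. Tnfrsf19, Tnf and Ltb lie on the right and Tnfrsf1b, Fas and Tnfrsf8 on the left in red, and Tnfrsf12a (2.02) is grey.

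Each array was then set against WT hepatocytes, with a change of over 2-fold as the threshold used in the study. These are single arrays, so no test was possible, and all of these comparisons share the WT array. In mutant hepatocytes 4 of the 16 family genes above background on either array were higher (Tnfrsf12a, Tnfrsf19, Tnfrsf21 and Tnfsfm13) and 0 lower, where 9.43% of all genes were higher and 8.59% lower. With median scaling 20.7% of all genes were higher and 3.47% lower, and 6 family genes were higher and 0 lower, as that scaling moved the median log2 ratio of the genes above background on both arrays from -0.14 to 0.39. In Alb-Cre+/+ EpCAM+ cells 7 of 21 were higher and 3 lower (19.1% and 17.3% of all genes). In Alb-Cre+/- cells 6 of 20 were higher and 2 lower (17.8% and 15%), in Mx1-Cre cells 5 of 16 and 2 (18.3% and 14.8%), and in DDC cells 7 of 21 and 1 (17.8% and 15.7%). Median scaling gave 6 higher and 1 lower family genes for Alb-Cre+/+ cells (17.4% and 13.7% of all genes), 6 and 1 for Alb-Cre+/- (19.9% and 11.2%), 5 and 1 for Mx1-Cre (25% and 9.91%) and 9 and 1 for DDC (25.8% and 11.7%).

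Tnf, Tnfrsf12a, Tnfrsf19, Tnfrsf21 and Tnfsfm13 were over 2-fold above WT hepatocytes on all 4 EpCAM+ arrays, and all but Tnf were so in mutant hepatocytes too. Tnfrsf8 was over 2-fold lower on all 4. The share of all genes past 2-fold on all 4 arrays was not computed, so these lists are descriptions only. Tnfrsf21 (DR6), a death domain receptor, read 161 in WT hepatocytes, 477 in mutant hepatocytes, and in EpCAM+ cells 329 (Alb-Cre+/+), 502 (Alb-Cre+/-), 377 (Mx1-Cre) and 454 (DDC). A second probe was not above background on any array. Its groups overlapped, since the mutant hepatocytes lay within the EpCAM+ range (log2 difference 0.57 ± 0.47, adjusted p = 0.412). WT hepatocytes alone were low. The change in Alb-Cre+/+ EpCAM+ cells, 2.04-fold, fell under 2-fold with median scaling (log2 0.79).

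Tnfsfm13 is a joined transcript of the adjacent genes Tnfsf12 and Tnfsf13 (TWEAK and APRIL), so its probe may read the mRNA of a gene it shares exons with. It read 327 in WT hepatocytes, 681 in mutant hepatocytes, and in EpCAM+ cells 1944 (Alb-Cre+/+), 824 (Alb-Cre+/-), 1306 (Mx1-Cre) and 690 (DDC). All EpCAM+ arrays were above the hepatocytes, DDC only just, and limma gave 1.22 ± 0.50 with an adjusted p of 0.116. With median scaling the Alb-Cre+/- cells did not exceed the mutant hepatocytes (log2 1.683 against 1.696 over WT hepatocytes). In the authors' normalization the folds over WT hepatocytes were 5.95-fold (5.03 to 7.05), 2.52-fold, 4-fold and 2.11-fold on the EpCAM+ arrays in this order, and 2.08-fold in mutant hepatocytes. Its second probe was not above background on any array, and the probe of Tnfsf12 itself detected nothing.

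**Figure D4:**
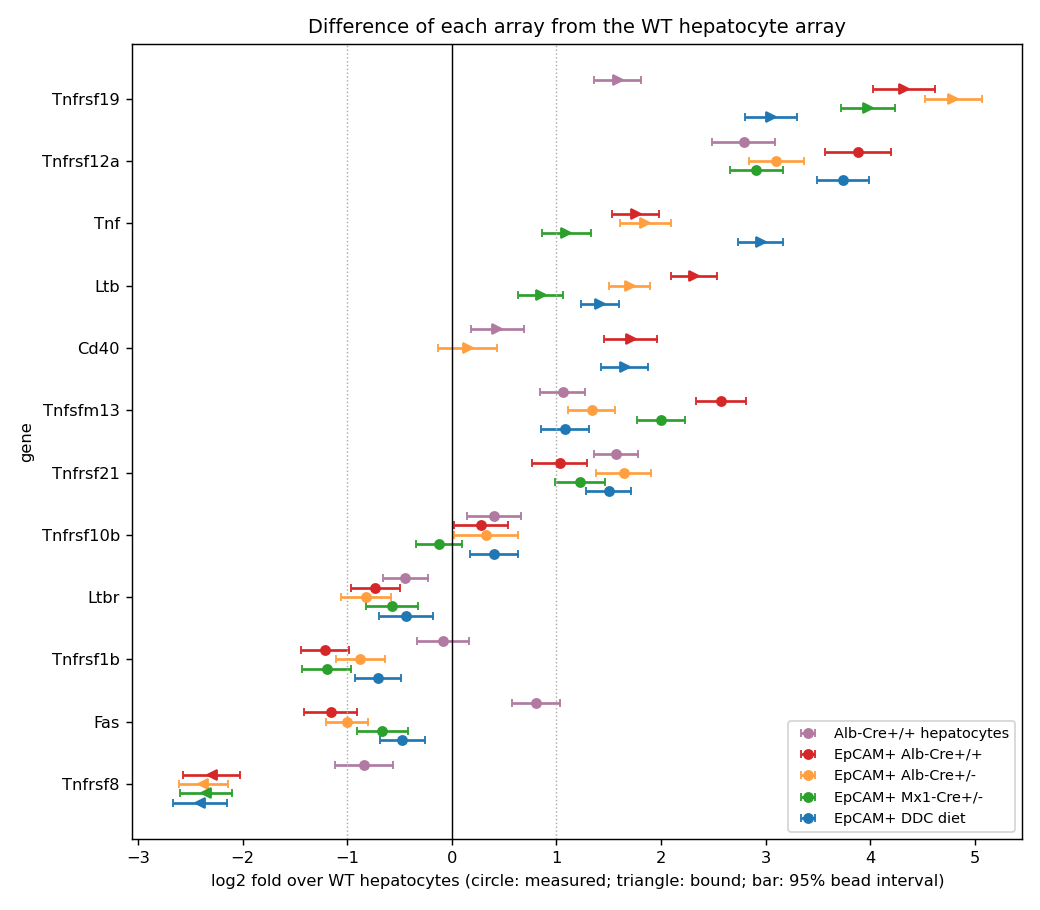
Log2 fold of each of 5 arrays over the WT hepatocyte array for 12 family genes. Circles are measured folds, triangles are bounds against background, bars are 95% bead intervals, and dotted lines mark 2-fold; Tnfrsf12a lies right of the 2-fold line in every comparison and Tnfrsf8 left of it on the EpCAM+ arrays.

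EpCAM+ cells of the mutants were next set against those of the DDC diet, the chemical model of oval cell growth. In Alb-Cre+/+ cells 3 of 25 family genes were over 2-fold higher (Tnfrsf19, Tnfsf13b and Tnfsfm13) and 2 lower (Tnf and Tnfrsf22), close to the 7.83% and 7.81% of all genes. In Alb-Cre+/- cells 1 of 24 was higher (Tnfrsf19) and 3 lower (Cd40, Tnf and Tnfrsf22), where 5.75% and 4.61% of all genes were. In Mx1-Cre cells 0 of 22 were higher, against 5.15% of all genes, and the same 3 were lower, against 4.73%. Median scaling gave 2 higher and 2 lower family genes for Alb-Cre+/+ (5.42% and 15.3% of all genes) and 1 and 3 for Alb-Cre+/- cells (5.03% and 7.8%). Such counts are too small to be read apart from the background. These comparisons share the DDC array.

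Tnf was lower than in DDC cells by 2.29-fold in Alb-Cre+/+ (1.97 to 2.67), 2.15-fold in Alb-Cre+/- (1.82 to 2.54) and 3.63-fold in Mx1-Cre cells (3.09 to 4.26). Tnfrsf22, a decoy receptor for Tnfsf10 in the mouse, read 315 in DDC EpCAM+ cells and 89.4 to 105.5 on the other 5 arrays, none of them above background. It was at least 2.65-fold, 2.8-fold and 2.74-fold lower in the 3 mutants. Of its 5 probes only 1 showed this; a second reached 118 in Alb-Cre+/- and 114 in DDC cells, and the others stayed at background. Tnfrsf19 went the other way, with 2.42-fold (1.95 to 2.99), 3.35-fold (2.74 to 4.09) and 1.9-fold (1.57 to 2.3) more signal than DDC, although with median scaling the first of these was under 2-fold (log2 0.59). Tnfsfm13 was 2.82-fold higher in Alb-Cre+/+ (2.39 to 3.32; log2 0.85 with median scaling), 1.19-fold higher in Alb-Cre+/- (1.03 to 1.39), where median scaling reversed it (log2 -0.06), and 1.89-fold higher in Mx1-Cre cells (1.62 to 2.2). Median scaling shifted the median log2 ratio of the genes above background on both arrays from 0.04 to -0.31 in Alb-Cre+/+ and from 0.01 to -0.16 in Alb-Cre+/- over DDC.

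Cd40, the receptor of Cd40lg on antigen-presenting cells and some epithelia, differed among the EpCAM+ arrays. It read 521 in Alb-Cre+/+, 177 in Alb-Cre+/- and 501 in DDC EpCAM+ cells, was not above background in Mx1-Cre (105) or WT hepatocytes (91.4), and read 215 in mutant hepatocytes. Alb-Cre+/+ and DDC could not be told apart by bead error (1.04-fold, 0.897 to 1.21), whereas Alb-Cre+/- lay 2.83-fold (2.39 to 3.35) and Mx1-Cre at least 4.36-fold below DDC. Further probes of Cd40 were highest on the same arrays, with 207 and 173 at one and 205 and 250 at another in Alb-Cre+/+ and DDC. Cd74, the invariant chain of antigen-presenting cells, read 6806 in Alb-Cre+/+ cells and between 1863 and 2348 on the other EpCAM+ arrays. Its part in the Cd40 values was not tested.

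The B cell factors were found mainly in Alb-Cre+/+ EpCAM+ cells. Tnfsf13b (BAFF), which keeps B cells alive, read 258 there, 116 in Alb-Cre+/- and 120 in Mx1-Cre cells, and was not above background in DDC cells (89.5) or hepatocytes (99.8 and 90.3). A second probe read 231 and 125 in Alb-Cre+/+ and Alb-Cre+/- cells and was at background elsewhere, as a further one was on all arrays. Its receptors followed in part, with Tnfrsf13c above background only in Alb-Cre+/+ cells (149) and Tnfrsf13b in Alb-Cre+/+ (163) and Alb-Cre+/- cells (135). A second Tnfrsf13b probe was at background on every array. Cd79b, a part of the B cell receptor, read 334 in Alb-Cre+/+ and 114 in Alb-Cre+/- cells and was not above background elsewhere. Of the 6 B cell and plasma cell markers on the array, 2 were above background in Alb-Cre+/+ cells, Cd79b and Jchain (127), and Ms4a1, which defines B cells, was at background on every array. The part of B cells in these signals was not tested. Cd27, a receptor of T and B cells, read 303 (Alb-Cre+/+), 204 (Alb-Cre+/-), 129 (Mx1-Cre) and 163 (DDC) in EpCAM+ cells and 207 in mutant hepatocytes, and was not above background in WT hepatocytes (log2 difference 0.30 ± 0.38, adjusted p = 0.594). A second Cd27 probe was above background only in Alb-Cre+/+ EpCAM+ cells (124), and a further one on no array.

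Genes of the TRAIL system were not called by limma, which could test Tnfrsf10b alone. Tnfrsf10b, the death receptor of Tnfsf10 (TRAIL) in the mouse, read 374 to 542 on all 6 arrays at its brightest probe, with a log2 difference of 0.02 ± 0.35 (adjusted p = 0.978). Its other probes were not as even. A second was at background in WT hepatocytes (104) and read 262 in mutant hepatocytes and 361 (Alb-Cre+/+), 243 (Alb-Cre+/-), 134 (Mx1-Cre) and 269 (DDC) in EpCAM+ cells. Another was at background in WT hepatocytes (109) and Mx1-Cre cells (94.7) and read 150 in mutant hepatocytes and 220, 155 and 146 in the Alb-Cre+/+, Alb-Cre+/- and DDC cells. Of the last pair, 1 was above background only in Alb-Cre+/- cells (133). Whether Tnfrsf10b differed from WT hepatocytes thus depends on the probe. Tnfsf10 was read by a pair of probes of similar mean signal. The first was above background in mutant hepatocytes (133), Alb-Cre+/- (295) and DDC cells (191), and the second in Alb-Cre+/+ (131), Alb-Cre+/- (170), Mx1-Cre (166) and DDC cells (217). Both were at background in WT hepatocytes and above it in Alb-Cre+/- and DDC cells, so the gene's order over the other arrays depends on the probe. Tnfsf14 (LIGHT), a ligand of Ltbr and Tnfrsf14, read 186 in WT and 126 in mutant hepatocytes and 223 in Alb-Cre+/+, 113 in Alb-Cre+/- and 123 in DDC cells, and was not above background in Mx1-Cre cells (log2 difference -0.15 ± 0.31, adjusted p = 0.754). A second Tnfsf14 probe was above background only in Alb-Cre+/+ EpCAM+ cells (130), and a further one on no array. Tnfrsf11b (osteoprotegerin), the soluble decoy of Tnfsf11, read 202 in mutant hepatocytes and 142 in Alb-Cre+/+ EpCAM+ cells and was at background elsewhere. The other detected genes, Tnfrsf4, Tnfrsf14, Tnfrsf18, Tnfrsf25, Tnfsf9 and Tnfsf11, did not exceed 139 on any array.

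Genes that act downstream of these receptors were taken from a list of 31 adaptors, kinases, NF-kB subunits and inhibitors, of which 27 had a probe and 25 were tested. By limma 8 of 25 were higher in EpCAM+ cells and 0 lower (11.9% and 10.6% of all genes), 11 and 0 at an unadjusted p under 0.05. The median log2 difference was 0.75 against 0.10 for all genes. Of the 27 genes 16 were above background in WT hepatocytes, against 25 or 26 on each EpCAM+ array. Those not seen in WT hepatocytes, Map3k14 and Relb among them, could enter only through the EpCAM+ arrays. The filter thus favoured their direction, and the count is a description only. Birc2 (cIAP1), a ubiquitin ligase of TRAF complexes, read 621 and 1060 in WT and mutant hepatocytes and 2694, 4034, 3399 and 10353 in the EpCAM+ arrays, again in the order Alb-Cre+/+ and Alb-Cre+/-, then Mx1-Cre and DDC (2.45 ± 0.53, adjusted p = 0.013). Tnip1, which restrains NF-kB together with Tnfaip3, read 706 and 759 in hepatocytes and 4306, 2376, 2543 and 4088 in EpCAM+ cells (2.13 ± 0.34, adjusted p = 0.0035). Both were well apart from hepatocytes on each EpCAM+ array.

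The alternative arm was represented by Map3k14, which read 102 (not above background) and 175 in hepatocytes and 479, 506, 620 and 476 in EpCAM+ cells (1.87 ± 0.34, adjusted p = 0.0067). Relb read 89.5 (not above background) and 194 in hepatocytes and 637, 486, 471 and 846 in EpCAM+ cells (1.99 ± 0.40, adjusted p = 0.0102). Their partner Nfkb2 did not pass (0.85 ± 0.50, adjusted p = 0.246), with 219 and 371 in hepatocytes and 944, 572, 312 and 417 in EpCAM+ cells, where Mx1-Cre lay below the mutant hepatocytes. The inhibitors Nfkbie (1.71, adjusted p = 0.0165) and Nfkbia (1.36, adjusted p = 0.0306), the initiator caspase Casp8 (1.24, adjusted p = 0.0284) and the subunit Rela (0.91, adjusted p = 0.048) rose as well. Tnfaip3 (A20) missed the threshold (1.98 ± 0.64, adjusted p = 0.0577), although it ran from 495 to 1902 in EpCAM+ cells against 315 and background in hepatocytes. Rel was not above background on any array. The signalling calls did not hold without the WT hepatocyte array. That fit has a lone hepatocyte array, and far fewer of all genes were called higher in it. Without the Alb-Cre+/+, the Alb-Cre+/- or the DDC EpCAM+ array 5 of 25 signalling genes were higher by limma. The shares of all genes were then 10.1%, 7.13% and 8.6%.

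Targets of NF-kB were taken from a list of 24 genes, which shares some members with the signalling list. Of 19 tested, 4 were higher (Nfkbia, Nfkbie, Relb and Ier3) and 1 lower, next to 11.9% and 10.6% of all genes. Of the 22 with a probe 9 were above background in WT hepatocytes, so many of those tested entered only through the EpCAM+ arrays. The filter favoured the higher direction for these. Without the WT hepatocyte array 0 of 20 were higher and 2 lower by limma (4 and 2 at an unadjusted p under 0.05), next to 2.44% and 8.17% of all genes. The lower gene was Sod2, a mitochondrial superoxide dismutase that hepatocytes also express (-1.66 ± 0.31, adjusted p = 0.0074). Ier3, an early response gene, read 666 in WT hepatocytes, 10313 in mutant hepatocytes and 32646, 40624, 33892 and 57308 in EpCAM+ cells (3.93 ± 0.88, adjusted p = 0.015).

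In mutant against WT hepatocytes, NF-kB targets were over 2-fold higher in 8 of 19 genes above background, next to 9.43% of all genes, and 1 of 25 signalling genes was, Traf5 (at least 2.3-fold). The chemokine Cxcl1 read 605 in WT and 11197 in mutant hepatocytes, 18.5-fold higher. Lcn2, a siderophore-binding protein of the acute phase, read 654 and 12180 (18.6-fold). Ier3 differed 15.5-fold, Vcam1 at least 6.92-fold and Il1b, a macrophage cytokine, at least 4.85-fold. In the same array 9 of 12 macrophage markers, 8 of 11 markers of cholangiocytes and oval cells and 3 of 7 pan-leukocyte markers were over 2-fold above WT hepatocytes, among them Lyz2 (5.03-fold) and Tspan8 (at least 16-fold). The part of these cells in the signals of mutant hepatocytes, Tnfrsf12a and Tnfrsf19 included, was not tested. Tnf stayed at background there (112), and so did the targets Birc3, Ccl20 and Il6.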

How the data were processed

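Labelled RNA of 6 samples was hybridised to Illumina MouseWG-6 v2 bead arrays, 1 per condition. The authors deposited, for each of 45281 probes, the signal intensity before normalization, the number of beads with its standard error, the detection p-value against control probes, and a second set of intensities that they quantile normalized across the arrays. The number of beads per probe, a deposited count with a median of 42 to 44 per array, limits the precision of a signal. The normalized intensities were used, and their ranks were those of the unnormalized ones on every array. Quantile normalization gives all arrays the same distribution, so a change of most genes in 1 direction would be removed.

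Gene symbols came from the platform annotation, in which 34885 probes have 1 symbol, 18 several and 10378 none. A gene was read at its probe with the highest mean signal among those with 1 symbol. Probes were taken as above background at a detection p under 0.05 (11429 to 17152 per array). For limma 3.58.1 (R 4.3.3; lmFit, eBayes with trend), signals were raised to a floor of 115, the median of the lowest signals above background, and taken to log2; genes above background on every array of 1 side entered. Folds between single arrays used a threshold of 2. All fits ran on the whole table. Only the main limma design was tried on simulated data, with raised genes only and without the detection filter. The alternatives and the fits without single arrays were not simulated. Nothing states that any sample pools animals.

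The family genes and the lists were chosen with earlier results of these data known. Named in full were Tnfrsf12a, genes called by limma, genes over 2-fold from WT hepatocytes in 1 direction on all EpCAM+ arrays, the 3 furthest in each direction in the comparisons with DDC and of both hepatocyte arrays, and their ligands or receptors. From the lists, genes called by limma or over 4-fold in mutant over WT hepatocytes were named; other genes were named after their values were seen. Alternatives were other normalizations of the unnormalized intensities (quantile over probes above background, median scaling, normexp with an offset of 16), a detection p under 0.01, the mean of all probes, genes above background on both arrays, on at least 1 array or without a filter, a floor at 1, eBayes without trend, and each array left out. Promoters were taken from RefSeq (GRCm38.p6).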

Additional observations from a re-analysis of the deposited data

Results flagged for a closer look

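Over the 4 EpCAM+ arrays 27 family genes were examined for a single array far from the other 3, by the gap to the nearest array over the whole range, judged by Dixon's critical value for 4 samples, with signals below the floor set to it. In 8 of them the highest array stood apart. The rate of about 1 in 20 that chance gives for measured values does not apply, since each of the 8 has 1 to 3 arrays at the floor, where values have no order, so these are descriptions only. Tnfrsf11b and Tnfrsf13c did so in Alb-Cre+/+ cells, Tnfrsf14, Tnfrsf18 and Tnfrsf22 in DDC cells and Tnfrsf25 in Alb-Cre+/- cells, each with a ratio of 1 because the other 3 arrays were at the floor. Tnfsf13b (0.947, 1 array at the floor) and Tnfsf14 (0.899, 2 arrays at the floor) stood apart in Alb-Cre+/+ cells. Apart from Tnfrsf22 (315), Tnfsf13b (258) and Tnfsf14 (223), these genes did not exceed 149 on the array concerned.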

How the results depend on the processing

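No result reversed a call under the alternatives run, and quantile normalization of the unnormalized intensities, a floor at 1 and eBayes without trend moved none of the counts by over 1.5 times. With median scaling, limma called 1 family gene lower and 673 of all genes higher, 1 family gene each was lower in Alb-Cre+/+, Alb-Cre+/- and Mx1-Cre cells over WT hepatocytes, and Tnfrsf12a was at log2 3.26 in mutant over WT hepatocytes and at -0.41 (a reversed direction, from 0.15, of a difference under 2-fold) and -0.93 in Alb-Cre+/+ and Alb-Cre+/- over DDC cells. With normexp, limma called 1 family gene lower. Tnfrsf12a was then at log2 3.38 in mutant hepatocytes and at 4.52, 3.71, 3.51 and 4.37 in Alb-Cre+/+, Alb-Cre+/-, Mx1-Cre and DDC cells over WT hepatocytes. Family genes lower than WT hepatocytes were 2 in mutant hepatocytes (17.1% of all genes), 5 in Alb-Cre+/- (23.3%) and 2 in DDC cells (23.8%). Over DDC 8 were higher and 4 lower in Alb-Cre+/+ cells (13.4% and 13.6%), and 1 was higher in Mx1-Cre cells (9.56%). The family counts in the rest of this paragraph stand without the share of all genes and are descriptions only. At a detection p under 0.01, 3 family genes were higher in Mx1-Cre cells over WT hepatocytes. With the mean of all probes, which includes probes at background, limma called 676 genes higher; over WT hepatocytes 1 family gene was higher in mutant hepatocytes, 0 lower in Alb-Cre+/+, 1 lower in Alb-Cre+/-, 3 higher and 1 lower in Mx1-Cre and 3 higher in DDC cells; over DDC 0 were higher and 1 lower in Alb-Cre+/+, 0 higher and 1 lower in Alb-Cre+/- and 1 lower in Mx1-Cre cells. Over genes above background on both arrays, 3 were higher in each EpCAM+ array over WT hepatocytes, 1 was lower in Alb-Cre+/-, 1 in Mx1-Cre and 0 in DDC cells, and over DDC 1 was lower in Alb-Cre+/+ and 1 in Mx1-Cre cells.

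With genes above background on at least 1 array, limma called 1 family gene higher and 1 lower, 560 genes higher, 4 signalling genes and 1 NF-kB target; with no filter 0 and 1 family genes (of 42 tested), 249 genes higher and 429 lower, 2 signalling genes and 0 targets, as more genes enter the adjustment. Leaving out 1 array at a time gave 0 to 3 family genes higher and 1 to 2 lower, 248 to 1033 genes higher and 679 to 1555 lower, 0 to 6 signalling genes and 0 to 5 targets, and a Tnfrsf12a log2 difference of 0.62 to 3.41; a lone hepatocyte array was assumed to vary like the others. Of 15 alternatives limma called Tnfrsf8 in 15, Tnfrsf19 in 13, Tnf and Ltb in 11, Tnfrsf1b in 6, Fas in 4 and Tnfrsf12a in 1. Of these, Tnfrsf8, Tnfrsf19, Tnf and Ltb passed the main filter only through the side where they are high. The filter favoured their direction, so their larger counts are not read as support. No paired analysis was possible because each group has 1 array. Signals near background, under about 159 in WT hepatocytes, give bounds only.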
